A study of Rattus norvegicus with 10 samples.

Results

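The 8 neuropeptide genes described here fall into 2 groups of 4 by what sensory neurons are known to do with them. Calca, Calcb, Tac1 and Adcyap1 are made by intact sensory neurons, and Gal, Npy, Vip and Nts are the set named for induction by nerve injury. They were taken by gene name from a table of 30560 genes, in which all 8 had 1 row each, and 7 of the 8 had enough counts for the test across genes. Expression was measured by poly(A) RNA sequencing in L6 dorsal root ganglia, which hold the cell bodies of sensory neurons, of Sprague Dawley rats aged 7 to 8 weeks. The treated rats had received SCN9A_2544, an siRNA of the divalent type directed at Scn9a, at 0.75 mg (5 samples), and the controls phosphate-buffered saline, PBS, at 0 mg (5 samples). In both groups 30 to 45 µL went through a catheter implanted in the lumbar intrathecal space 5 days earlier, and all rats received meloxicam, a non-steroidal anti-inflammatory drug. Surgery, catheter and drug were therefore shared by the controls. A timepoint of 14 days is given for every sample, without the event it counts from. No group given an siRNA without this target was analysed here, so effects of the sequence and of dosing with any siRNA cannot be told apart.

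Neuropeptides are cut from larger precursors, packed into dense-core vesicles and released from both ends of the sensory neuron. Calcitonin gene-related peptide and substance P from the peripheral ending widen vessels and make them leak, and from the central ending they act on neurons of the dorsal horn. When a peripheral nerve is cut, many sensory neurons are known to turn on galanin, neuropeptide Y and vasoactive intestinal peptide, while the transcripts of substance P and calcitonin gene-related peptide go down. The 2 groups are therefore commonly read against each other as a sign of the state of the neuron.

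Promoter sequences from RefSeq (build GRCr8, not the build of the counts) were available for 7 of the 8 genes, Calcb being the other one. They are shown because Calca, Tac1, Vip and Gal have long been studied for control through cyclic AMP response elements (CRE), whose half-site is TGACG. In the 250 bases before the start, read on both strands, 5 of 7 genes held this half-site, as did 18.2% of 33469 promoters. Each sequence runs on the strand of the gene, with TGACG, or its reverse complement CGTCA, in capitals.
Calca (chr1:178317624-178317653, minus strand): gaagcaccgaggTGACGcaatctgtctggg
Tac1 (chr4:36645365-36645394, plus strand): tccctaaaattgCGTCAtttcgaacccaat
Gal (chr1:210084618-210084647, minus strand): gcgctgagcgggTGACGcggcagctcccac
Vip (chr1:44470371-44470400, plus strand): ggatcaccactgTGACGtctttcgaggagc
Nts (chr7:39461042-39461071, minus strand): attagggaagatCGTCActttcaatcaagg

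The half-site thus stood in windows of both peptide groups, 97 bases before the start of the promoter entry in Vip, 112 in Calca and 63 in Gal. The entries of Vip and Tac1 start 248 and 239 bases inside the annotated gene. Their half-sites therefore lie within the annotated span, unlike that of Gal. A full palindromic element, TGACGTCA, occurred in 0 of the 7 windows and in 1.59% of all promoters. The AP-1 motif TGANTCA, which fits dimers of Jun and Fos proteins, occurred in 1 of 7, Nts, and in 6.34% of all promoters. TATAAA, the letters of the TATA box, stood in the windows of Gal, Vip and Adcyap1, and in 12.9% of all promoters. The matches began 41 bases before the start in Gal and 248 in Adcyap1. In Vip they began 48, 165 and 175 bases before it, within the annotated gene. These are matches of letters only.

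The 250 bases before Gal and Npy, the 2 tested genes with the largest fold changes below, are given whole. Capitals mark the CRE half-site, the TATA box and, in Npy, the GC box. The last of these reads GGGCGG and was present in 30.5% of all promoters.
Gal (chr1:210084573-210084822, minus strand): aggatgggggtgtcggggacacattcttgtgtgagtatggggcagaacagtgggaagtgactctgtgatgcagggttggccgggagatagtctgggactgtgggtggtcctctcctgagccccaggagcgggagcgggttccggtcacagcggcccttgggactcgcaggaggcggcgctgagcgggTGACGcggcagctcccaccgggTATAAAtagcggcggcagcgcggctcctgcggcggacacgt
Npy (chr4:80211861-80212110, plus strand): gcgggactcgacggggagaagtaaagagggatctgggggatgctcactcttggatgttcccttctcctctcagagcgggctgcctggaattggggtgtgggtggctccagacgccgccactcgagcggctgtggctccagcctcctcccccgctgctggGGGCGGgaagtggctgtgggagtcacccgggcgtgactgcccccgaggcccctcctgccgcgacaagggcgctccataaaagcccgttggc

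The libraries held 11832376 to 15420006 estimated counts. Scn9a, the target, stood at 44.6 to 103 CPM, that is counts after scaling for library size, in SCN9A_2544 libraries and at 132 to 257 CPM in PBS libraries, without overlap. All 20 pan-neuronal genes and all 8 markers of peptidergic nociceptors that were looked up passed the filter on low counts. The mean of the pan-neuronal genes ran from 8.33 to 9.63 log2 CPM in treated libraries and from 8.61 to 9.68 in PBS libraries, so neuronal RNA content varied within both groups. It was lowest in SCN9A_2544 replicate 3 and PBS replicates 3 and 5. Schwann cell and myelin markers were highest in the same 3 libraries, and 2 of 12 had a log2 fold change above 0 and 10 below, with a median of -0.29. Across the 15186 genes tested, edgeR's quasi-likelihood test with Benjamini-Hochberg adjustment at 0.05 called 0% higher and 0% lower. Higher values with an unadjusted p under 0.05 were found for 2.50% of tested genes and lower ones for 1.73%, 4.23% in all. DESeq2 called 0.0933% of 17140 genes higher and 0.00583% lower.

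The peptides of intact neurons did not differ between the groups beyond the spread of the libraries. Of the injury-induced peptides, Gal, Npy and Vip were higher in most treated ganglia, by 2.01, 2.58 and 3.12 in mean log2 CPM, and Nts differed by 0.04. Of the 7 tested genes 0 passed an adjusted p of 0.05 by edgeR, against 0% of all genes. An unadjusted p under 0.05 was found for 2 of them, Npy and Gal, and for 4.23% of all tested genes. By DESeq2 1 of the 8, Vip, passed over all genes. The median edgeR log2 fold change was -0.08 over the 4 constitutive genes, 3.20 over the 3 tested injury-induced genes and 0.02 over all genes tested. In bulk tissue, fewer cells of a type and less RNA per cell cannot be told apart.

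**Figure D1:**
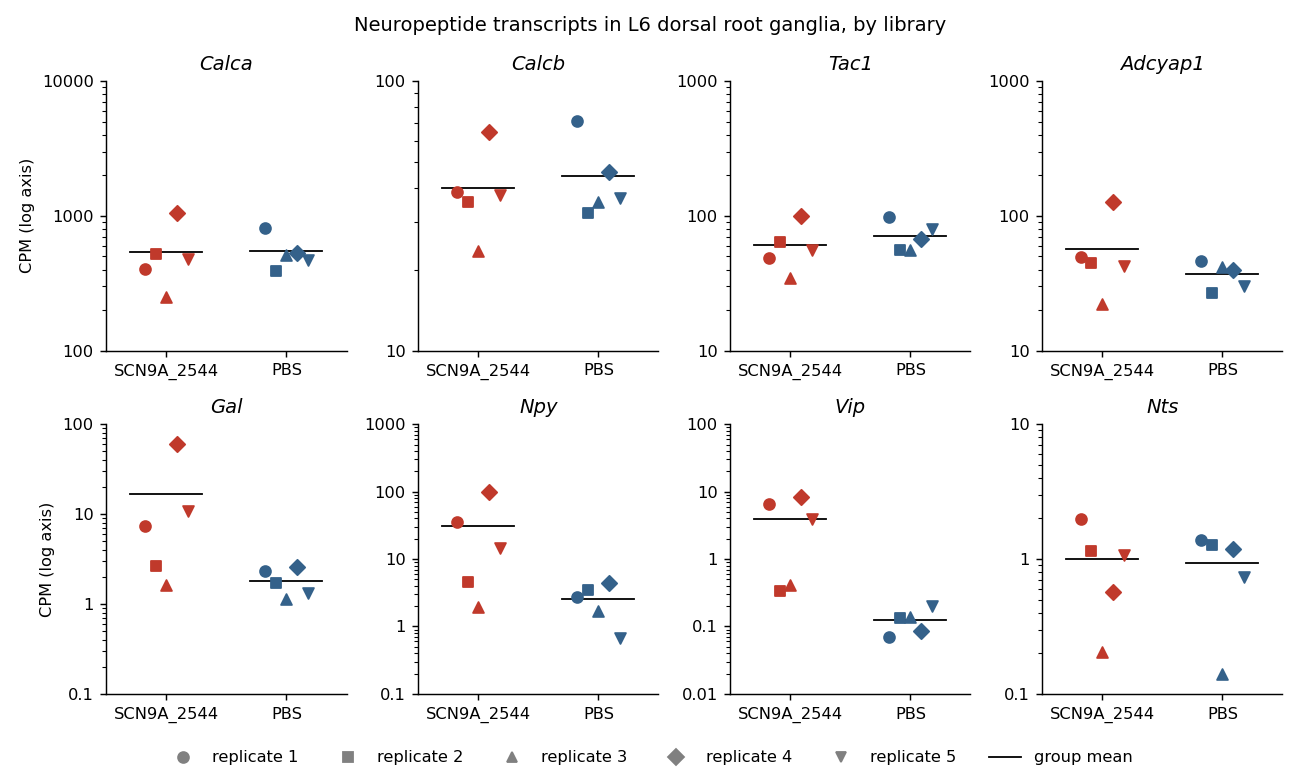
CPM of each peptide gene on a log axis, with 1 point per library (5 SCN9A_2544, 5 PBS), the marker giving the replicate number and the line the group mean. Gal, Npy and Vip are high in SCN9A_2544 replicates 1, 4 and 5 and near the PBS values in replicates 2 and 3, while the upper row overlaps between groups.

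Calca encodes calcitonin and, by alternative splicing, the alpha form of calcitonin gene-related peptide, and the counts per gene do not separate the 2 products. It stood at 402, 524, 250, 1058 and 478 CPM in SCN9A_2544 replicates 1 to 5, against 819, 388, 510, 532 and 474 CPM in PBS replicates 1 to 5. The groups overlapped, and both the highest library, SCN9A_2544 replicate 4, and the lowest, SCN9A_2544 replicate 3, were treated ones. The means were 542 ± 307 CPM in SCN9A_2544 and 545 ± 163 CPM in PBS (SD, n = 5 each). The edgeR log2 fold change was -0.01 (SE 0.34, 95% interval -0.75 to 0.73, adjusted p = 0.999). Its sign turned in 7 of 17 alternative fits, so no direction can be given.

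Calcb encodes the beta form of the same peptide and is the next protein-coding gene to Calca on the GRCr8 assembly, with 0 between them. Calcb stood at 38.8, 35.7, 23.4, 64.9 and 37.9 CPM in SCN9A_2544 replicates 1 to 5, against 71.1, 32.5, 35.5, 46.0 and 36.8 CPM in PBS replicates 1 to 5. SCN9A_2544 replicate 3 was again the lowest library, and SCN9A_2544 replicate 4 and PBS replicate 1 were the highest, as for Calca. The log2 fold change was -0.15 (SE 0.28, 95% interval -0.75 to 0.46, edgeR adjusted p = 0.976). The 2 genes are paralogs whose reads can be hard to assign. In 3 of the 10 libraries both had fractional estimates, and their sum was whole to within 0.01 in all 10. Calcb made up 7.37 ± 1.32% of the summed counts in SCN9A_2544 and 7.48 ± 0.62% in PBS (SD, n = 5 each, two-sided exact permutation p = 0.889). For the sum of both genes, which no division of reads between them alters, the mean log2 CPM of the groups differed by -0.13 (p = 0.794 by exact permutation). The other 6 peptide genes had whole counts in every library.

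Tac1 encodes the precursor of substance P and neurokinin A. It stood at 49.1, 64.5, 34.7, 100.5 and 55.8 CPM in SCN9A_2544 replicates 1 to 5, against 98.7, 55.7, 56.3, 67.2 and 79.4 CPM in PBS replicates 1 to 5. Treated replicates 1 and 3 lay below every PBS library and treated replicate 4 above every one. The log2 fold change was -0.23 (SE 0.26, 95% interval -0.81 to 0.34, edgeR adjusted p = 0.975). It was below 0 in all 17 alternative fits and came to -0.49 without SCN9A_2544 replicate 4.

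Adcyap1 encodes PACAP, a peptide that intact small neurons make and that is also known to increase in injured neurons. It stood at 49.9, 44.3, 22.3, 126 and 42.2 CPM in SCN9A_2544 replicates 1 to 5, against 46.5, 26.7, 41.7, 39.6 and 30.0 CPM in PBS replicates 1 to 5. SCN9A_2544 replicate 4 stood far above the other 9 libraries, whose values overlapped between groups. The log2 fold change of Adcyap1 was 0.63 (SE 0.38, 95% interval -0.20 to 1.45, edgeR adjusted p = 0.963), and it was 0.11 (SE 0.24) without SCN9A_2544 replicate 4. Without SCN9A_2544 replicate 3 its difference in mean log2 CPM was 0.69 (exact permutation p = 0.0476), against 0.42 (p = 0.421) with all 10 libraries.

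The constitutive genes varied together from library to library, although the points share the depth and scaling of each library. Over the 10 libraries the log2 CPM of Calca and Tac1 had Pearson r = 0.93 (permutation p = 0.00028, 0.00168 adjusted over the 6 pairs) and Spearman rho = 0.87 (p = 0.00205, adjusted 0.0123). Without the 2 libraries farthest from the median of Calca, r was 0.83. Calca and Calcb had r = 0.94 (permutation p = 9e-04, adjusted 0.0018) and rho = 0.77 (p = 0.0127, adjusted 0.0338), with r = 0.88 without the 2 farthest libraries. Adcyap1 was the least tied to the others. Its r with Tac1 was 0.64 (permutation p = 0.0499, adjusted 0.0499) with rho = 0.46 (p = 0.193, adjusted 0.193), and r was -0.03 without the 2 farthest libraries. The remaining 3 pairs had r between 0.75 and 0.89 (adjusted permutation p from 0.0018 to 0.0156) and rho between 0.66 and 0.75 (adjusted p from 0.0338 to 0.0526), of which Calca with Adcyap1 dropped to 0.42 without the 2 farthest libraries.

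Gal encodes galanin, an inhibitory peptide that intact adult ganglia hold in few neurons. Galanin transcripts stood at 7.36, 2.65, 1.63, 60.6 and 10.8 CPM in SCN9A_2544 replicates 1 to 5, against 2.33, 1.73, 1.12, 2.56 and 1.33 CPM in PBS replicates 1 to 5. Thus 4 of 5 treated libraries lay above every PBS library, and replicate 3 lay within the PBS range. The mean was 16.6 ± 24.9 CPM in SCN9A_2544 and 1.82 ± 0.62 CPM in PBS (SD, n = 5 each). The edgeR log2 fold change was 3.20 (SE 0.88, 95% interval 1.28 to 5.12), with an unadjusted p = 0.00354 and an adjusted p = 0.963 over all genes tested. The mean log2 CPM differed by 2.01 (two-sided exact permutation p = 0.0476, unadjusted). Most of the fold came from SCN9A_2544 replicate 4: without it the edgeR log2 fold change was 1.63 (SE 0.52) and the exact permutation p was 0.0635.

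Npy encodes neuropeptide Y, made after nerve injury mainly by large sensory neurons and, without injury, by sympathetic neurons. Its transcripts stood at 35.4, 4.56, 1.97, 98.5 and 14.7 CPM in SCN9A_2544 replicates 1 to 5, against 2.75, 3.46, 1.69, 4.36 and 0.667 CPM in PBS replicates 1 to 5. As for Gal, treated replicate 3 was the 1 treated library inside the PBS range, and replicate 2 lay just above it. The mean was 31.0 ± 40.0 CPM in SCN9A_2544 and 2.58 ± 1.45 CPM in PBS (SD, n = 5 each). The log2 fold change of Npy was 3.60 (SE 0.94, 95% interval 1.55 to 5.64), with an unadjusted p = 0.00243 and an edgeR adjusted p = 0.963. The mean log2 CPM differed by 2.58 (exact permutation p = 0.0556). Without SCN9A_2544 replicate 4 the edgeR log2 fold change was 2.46 (SE 0.76) and the exact permutation p was 0.0952. Without SCN9A_2544 replicate 3 or replicate 2, the treated libraries lowest in Npy, the exact permutation p was 0.00794 or 0.0476. It stayed above 0.05 without any other single library, and was 0.111 without PBS replicate 5.

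Vip encodes vasoactive intestinal peptide, which relaxes smooth muscle and, like PACAP, raises cyclic AMP in its target cells. It had 89, 5, 6, 132 and 58 counts in SCN9A_2544 replicates 1 to 5, against 1, 2, 2, 1 and 3 counts in PBS replicates 1 to 5. Every treated library was above every PBS library, as was the case for 0.396% of the 22236 genes with any count, although replicates 2 and 3 were above by only a few counts. Summed over libraries there were 290 counts in SCN9A_2544 and 9 in PBS, a ratio of 30.8 per scaled library size (95% interval 15.99 to 67.98, exact, for counting error only). Because 3 of 10 libraries held nearly all of its counts, the gene did not pass the filter of the edgeR test. The mean log2 CPM of Vip differed by 3.12 (p = 0.00794 by exact permutation, two-sided, the lowest value that 252 splits can give). By DESeq2, which kept the gene, its log2 fold change was 4.92 (SE 0.89, adjusted p = 0.00026), whereas edgeR without a filter gave 4.82 (SE 0.91, adjusted p = 0.795). The 2 tools thus gave similar sizes and different calls.

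Nts encodes neurotensin, a peptide first known from brain and gut. It had 27, 17, 3, 9 and 16 counts in SCN9A_2544 replicates 1 to 5, against 20, 19, 2, 14 and 11 counts in PBS replicates 1 to 5. The groups overlapped almost fully, and the library with most Gal, Npy and Vip, SCN9A_2544 replicate 4, was the second lowest treated library for Nts. The log2 fold change was 0.07 (SE 0.58, 95% interval -1.20 to 1.35, edgeR adjusted p = 0.996), an interval that leaves room for changes of more than 1 in either direction. Its sign turned in 5 of 17 alternative fits.

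Within the treated group Gal, Npy and Vip singled out the same libraries. Replicate 4 was highest for all 3, replicates 1 and 5 followed, and replicates 2 and 3 were lowest. The SD of log2 CPM among treated libraries was 1.99 for Gal, 2.22 for Npy and 2.00 for Vip, against 0.47, 0.98 and 0.28 among PBS libraries. The median over all tested genes, which covers genes of every level, was 0.32 in treated and 0.35 in PBS libraries. A wide spread was not limited to these 3 genes. Nts, also low in counts, had an SD of 1.00 in treated and 1.02 in PBS libraries. Adcyap1 had 0.89 and 0.34, and Calca 0.75 and 0.40. The pan-neuronal mean of SCN9A_2544 replicate 2 was 9.61 log2 CPM, beside 9.63 and 9.53 in replicates 1 and 5 and 9.39 in replicate 4. Replicate 3, the lowest treated library for Gal and Npy, also had the lowest pan-neuronal mean, 8.33. Among the other treated replicates this mean did not follow the order of Gal, Npy and Vip.

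Set against the pan-neuronal mean of the same library, Gal and Npy no longer overlapped between the groups. The log2 CPM of Gal minus that mean was -6.72, -8.12, -7.50, -3.46 and -6.07 in SCN9A_2544 replicates 1 to 5, against -8.37, -8.39, -8.27, -8.25 and -8.31 in PBS replicates 1 to 5. The PBS libraries fell within a narrow band, and treated replicate 2 lay only just above it. Npy ran from -7.37 to -2.76 in SCN9A_2544 libraries and from -9.18 to -7.44 in PBS libraries. The two-sided exact permutation p was 0.00794 for both, with differences of 1.94 for Gal and 2.50 for Npy, and 0.178% of all tested genes were higher and 0.0461% lower without overlap on this scale. Vip overlapped here through SCN9A_2544 replicate 2, at -10.67, and its difference was 3.05 (exact permutation p = 0.0238). The constitutive genes overlapped on this scale too, with differences of -0.20 for Calca, -0.23 for Calcb, -0.36 for Tac1 and 0.34 for Adcyap1 (exact permutation p = 0.556, 0.341, 0.254 and 0.468).

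**Figure D2:**
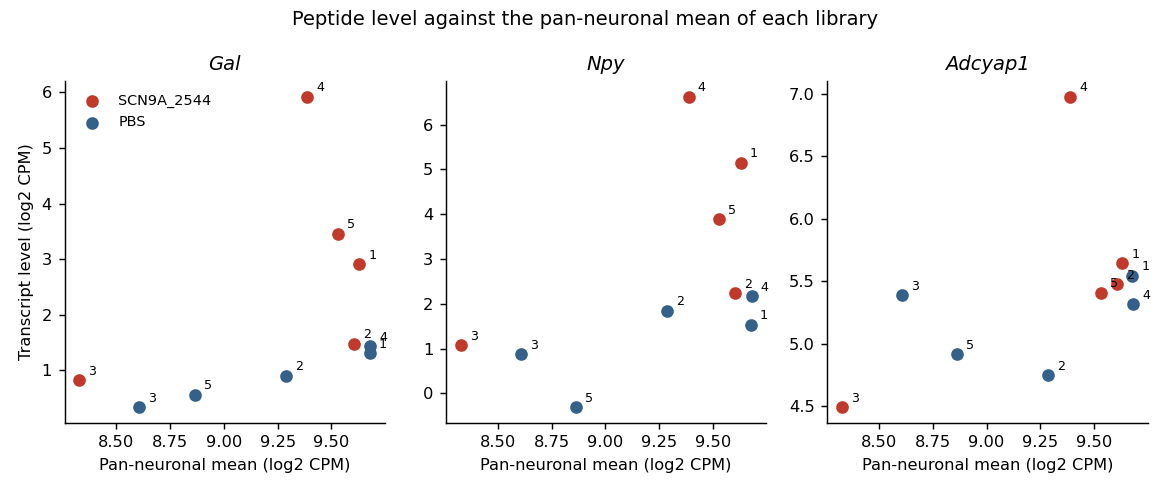
Log2 CPM of Gal, Npy and Adcyap1 (vertical axes) against the mean log2 CPM of 20 pan-neuronal genes (horizontal axis), 1 point per library with its replicate number. PBS points of Gal climb with the pan-neuronal mean, every treated point lies above that course, and treated replicate 4 is the highest for all 3 genes.

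The relation of each gene to the pan-neuronal mean was also computed over the 10 libraries, and 1 of the 8 relations passed after adjustment of Pearson's r. Nts had Pearson r = 0.88 (permutation p = 0.00241, 0.0193 adjusted over the 8 relations) and Spearman rho = 0.77 (p = 0.0128, adjusted 0.0618). Without the 2 libraries farthest from the median, SCN9A_2544 replicate 3 and PBS replicate 3, r was 0.59 (permutation p = 0.141), so the relation of Nts rests on those libraries. For the 4 constitutive genes r ran from 0.47 for Adcyap1 to 0.63 for Calcb (adjusted permutation p from 0.205 to 0.246) and rho from 0.33 for Tac1 to 0.76 for Calcb (adjusted p from 0.0618 to 0.401). No r is given for Gal, Npy and Vip, whose treated libraries fell into separate sets.

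The 2 peptide groups were contrasted within each library as the mean log2 CPM of the 4 injury-induced genes minus that of the 4 constitutive genes. This difference was -3.33, -5.67, -5.66, -3.64 and -3.93 in SCN9A_2544 replicates 1 to 5, against -6.71, -5.71, -6.96, -6.03 and -6.71 in PBS replicates 1 to 5. The groups did not overlap, but SCN9A_2544 replicates 2 and 3 lay just above PBS replicate 2. That separation rested on Vip, which had 5 and 6 counts in these replicates. Without Vip both fell below PBS replicate 2, and the groups overlapped. The mean was -4.45 ± 1.13 in SCN9A_2544 and -6.42 ± 0.53 in PBS (SD, n = 5 each), a difference of 1.98 on the log2 scale. It came from the injury-induced mean, which was 1.96 ± 1.61 in SCN9A_2544 and 0.02 ± 0.49 in PBS, while the constitutive mean was 6.40 ± 0.67 in SCN9A_2544 and 6.44 ± 0.35 in PBS. As the genes were chosen with results of these libraries known, no p is given. The difference ran from 1.70 to 2.28 with 1 library left out and was 1.58 without Vip.

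**Figure D3:**
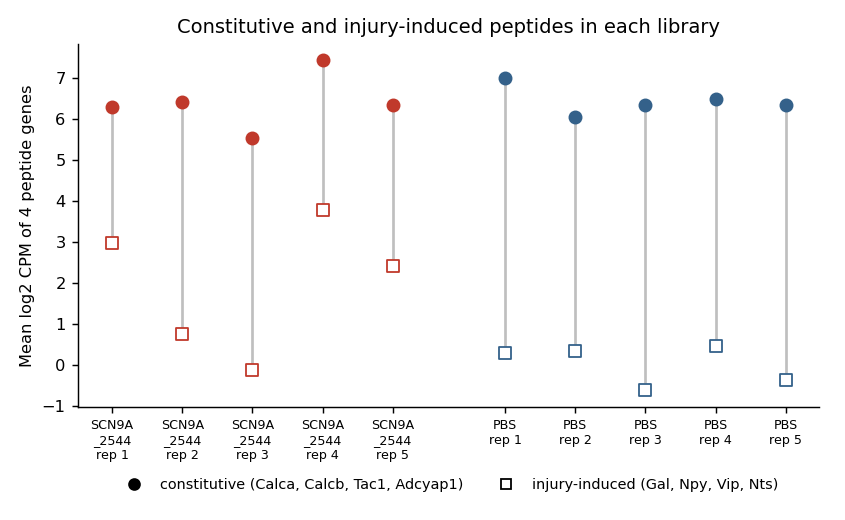
Mean log2 CPM of the 4 constitutive (filled circles) and the 4 injury-induced peptide genes (open squares) in each library, joined by a line, with SCN9A_2544 libraries left of PBS libraries. The lines are shortest in SCN9A_2544 replicates 1, 4 and 5, because the squares are higher there.

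Other genes of the peptide system were read from lists, of which 0 members passed the edgeR test over all genes. Among 8 tested genes of 15 listed other neuropeptides, 5 had a log2 fold change above 0 and 3 below, with a median of 0.10. Of these 8 genes 2 had an unadjusted p under 0.05, against 4.23% of all tested genes. The 1 with a fold change above 0 was Cartpt, which encodes the peptide CART. It stood at 5.18, 5.03, 0.409, 38.5 and 2.29 CPM in SCN9A_2544 replicates 1 to 5, against 2.13, 2.26, 1.48, 3.93 and 1.20 CPM in PBS replicates 1 to 5. Its log2 fold change was 2.23 (SE 0.90, edgeR adjusted p = 0.963), and SCN9A_2544 replicate 4 again stood apart. The other was Nmu, neuromedin U, at 0.403 ± 0.192 CPM in SCN9A_2544 and 0.957 ± 0.626 CPM in PBS (SD, n = 5 each). Its log2 fold change was -1.23 (SE 0.47, edgeR adjusted p = 0.963). Cck and Pnoc, which encode cholecystokinin and nociceptin, had values of 0.85 and 0.71.

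All 15 genes of peptide processing and dense-core vesicles were tested. The median log2 fold change was 0.09, with 9 genes above 0 and 6 below. An unadjusted p under 0.05 was found for 1 gene of the list, against 4.23% of all tested genes. This gene was Vgf, a granin-like secreted precursor. It stood at 124, 127, 110, 209 and 153 CPM in SCN9A_2544 replicates 1 to 5, against 93.5, 69.4, 103, 104 and 51.3 CPM in PBS replicates 1 to 5. The groups did not overlap, as for 0.454% of all tested genes in this direction and 0.211% in the other. Vgf had a log2 fold change of 0.78 (SE 0.23, edgeR adjusted p = 0.963). Pam, the enzyme that amidates most of these peptides, had a log2 fold change of -0.37, the convertase Pcsk1 one of 0.42 and the vesicle protein Ptprn one of 0.37.

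Of 21 listed receptor genes of these peptides 13 were tested, 8 above 0 and 5 below with a median log2 fold change of 0.04, and 0 had an unadjusted p under 0.05. The galanin receptor Galr2 stood at 16.4 ± 1.66 CPM in SCN9A_2544 and 13.2 ± 2.41 CPM in PBS (SD, n = 5 each). For Galr2 the log2 fold change was 0.32 (SE 0.15, edgeR adjusted p = 0.963). The PACAP receptor Adcyap1r1 had a log2 fold change of 0.56, the neuropeptide Y receptor Npy2r one of 0.64 and Galr1 one of 0.51. Calcrl, a subunit of the receptor for calcitonin gene-related peptide, had one of 0.004.

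**Figure D4:**
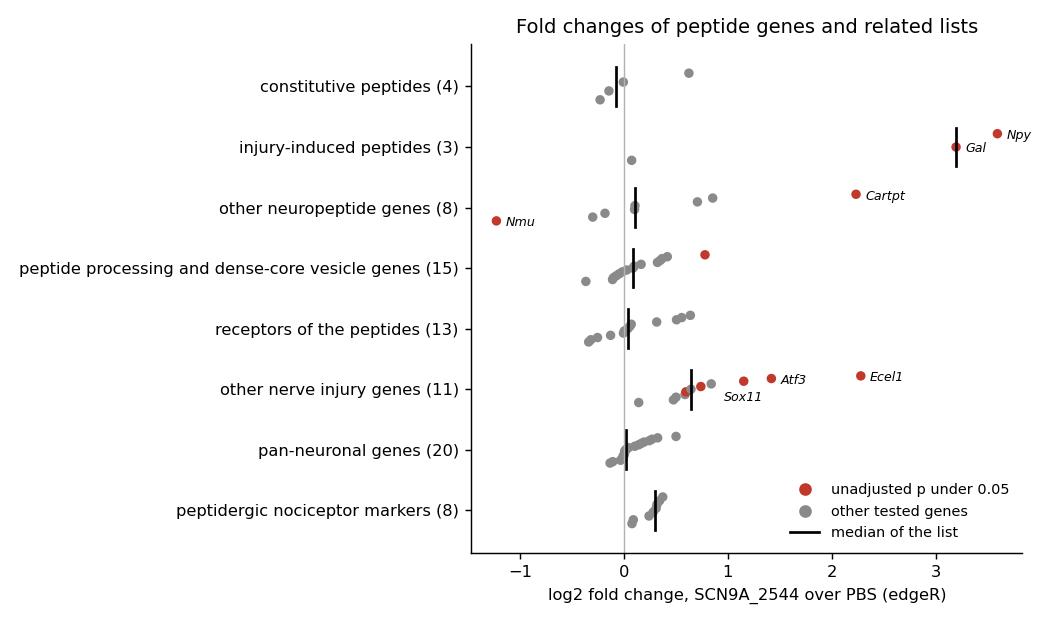
The edgeR log2 fold change, SCN9A_2544 over PBS, of each tested gene in 8 lists, with the number tested in brackets, the list median as a black line and genes with an unadjusted p under 0.05 in red. Gal and Npy lie farthest to the right, and 11 of 11 other nerve injury genes lie above 0. Of all 15186 genes tested, not drawn here, 8108 lie above 0.

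Genes known to rise with galanin and neuropeptide Y in injured neurons were on the same side as the induced peptides. Of 16 listed, 11 were tested. Log2 fold changes lay above 0 for 11 of 11, with a median of 0.65, and 5 had an unadjusted p under 0.05. Of all 15186 tested genes, 8108 lay above 0, and 2.50% were higher with an unadjusted p under 0.05. Ecel1, an endopeptidase of injured neurons, stood at 11.96, 4.56, 3.81, 18.3 and 7.00 CPM in SCN9A_2544 replicates 1 to 5, against 1.79, 2.39, 0.843, 1.79 and 2.54 CPM in PBS replicates 1 to 5. Its groups did not overlap, as for 0.454% of all tested genes in this direction. Its log2 fold change was 2.28 (SE 0.46, edgeR adjusted p = 0.812), with the same 3 libraries highest as for Vip. Jun and Sox11, transcription factors of the regeneration response, had log2 fold changes of 0.74 (SE 0.18) and 1.15 (SE 0.34), and Gadd45a one of 0.60 (SE 0.20). Jun was highest in SCN9A_2544 replicate 3, which was low in Gal, Npy and Vip. This list was assembled with results of these libraries known and is not independent evidence of its direction.

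Markers of other cells that make these peptides were read in the same libraries. Sympathetic neurons are a known source of Npy, Gal and Vip, and 4 of their 11 markers passed the filter, 2 above and 2 below 0. Their summed level was 34.3 to 77.1 CPM in SCN9A_2544 and 30.7 to 88.1 CPM in PBS. A single gene, Chrna3, made up much of this sum, with means of 40.7 CPM in SCN9A_2544 and 41.3 CPM in PBS. The defining noradrenergic genes were near 0: Th had 3 to 9 counts in SCN9A_2544 libraries and 1 to 7 in PBS libraries, and Dbh had 0 counts in SCN9A_2544 replicates 1, 2, 4 and 5 and 14 in replicate 3, against 0 to 3 in PBS. The part of sympathetic neurons in the peptide values was not tested.

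Of 12 macrophage markers 11 had a log2 fold change above 0, 6 had an unadjusted p under 0.05, and 3 did not overlap between the groups. Of all 15186 tested genes, 8108 had a log2 fold change above 0. By the same test 2.50% were higher with an unadjusted p under 0.05, and 0.454% were higher without overlap. C1qa, a subunit of complement C1q, had a log2 fold change of 1.03 (SE 0.20, edgeR adjusted p = 0.812), the smallest p of the list. The summed level of the 12 markers was 404 to 763 CPM in SCN9A_2544 and 306 to 570 CPM in PBS, with replicates 3 and 4 highest among treated libraries. Lyz2, a lysozyme, made up much of this sum, with a log2 fold change of 0.18 (SE 0.33). Without Lyz2, a choice made after its values were seen, the other 11 summed to 225, 197, 300, 367 and 226 CPM in SCN9A_2544 replicates 1 to 5, against 118, 185, 175, 173 and 174 CPM in PBS replicates 1 to 5. These sums did not overlap, and replicate 4, the library highest in Gal, Npy and Vip, was the highest, above replicate 3 in 10 of the 12 markers. Of 10 satellite glia markers 7 had a log2 fold change above 0 and 3 an unadjusted p under 0.05, and 1 did not overlap. The shares of all genes given for the macrophage markers stand beside these counts too. Ednrb, an endothelin receptor, had the largest of these fold changes, 1.07 (SE 0.31, edgeR adjusted p = 0.963). The summed level of the satellite glia markers was 5079 to 7131 CPM in SCN9A_2544 and 4626 to 5620 CPM in PBS. Apoe made up much of this sum, with means of 4230 CPM in SCN9A_2544 and 3470 CPM in PBS. Cadm4 reached 2415 CPM in a treated library, against a treated mean of 1004 CPM. The part of these cells in the peptide values was not tested. Peptidergic nociceptor markers had 8 of 8 tested genes above 0, with a median log2 fold change of 0.30 and 0 with an unadjusted p under 0.05, among them Trpv1 (0.32).

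The genes with log2 CPM most like each tested peptide gene over the 10 libraries were looked up as a description. Each r below is among the highest picked from all tested genes with a symbol. For Gal and Npy the treated libraries fell into separate sets, and no r without SCN9A_2544 replicate 4 was computed. Among those closest to Gal were Ciita (r = 0.92) and Sdc1 (0.91), and closest to Npy were Il2rg (0.96), Pdpn (0.92) and Mettl27 (0.90). Adcyap1 was most like Mmd (0.96), Stmn4 (0.95), a stathmin of the nerve injury list, and Rai2 (0.94). Calca was most like Mal2 (0.95), Acot9 (0.94) and Rnf11l1 (0.94), Calcb like Atp6ap2 (0.96), Vopp1 (0.95) and Acot9 (0.94), and Tac1 like Rnf11l1 (0.96), Lcmt1 (0.93) and Efna1 (0.93). Among the genes most like Nts were Rab3c (0.99) and Oprl1 (0.98).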

How the data were processed

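The authors deposited estimated counts of each gene in each library in 1 table, without normalization; 11.6% to 12.4% of a library's values are not whole. Named in the submitters' processing notes, without their role, are DESeq2 1.44.0, STAR 2.7.10a and the build mRatBN7.2. The counting program, annotation, strand setting and filters were not given in these sources. Estimates were rounded to whole numbers, a departure from the raw counts assumed. The filterByExpr function set aside low genes (at least 10 counts in enough libraries, at least 15 in total). Libraries were scaled by TMM and tested with edgeR 4.0.16 in R 4.3.3 (quasi-likelihood F-test, Benjamini-Hochberg over 15186 genes), the standard error being the log2 fold change over the square root of F. DESeq2 1.42.0 and limma 3.58.1 gave alternatives. CPM values are TMM-scaled; log2 CPM uses a prior count of 2. Single values were compared by two-sided exact permutation over 252 splits, 1 test per gene, unadjusted; correlations used 100000 permutations. The procedure was tested on simulated data.

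Groups follow the titles. The labels do not tie samples to single animals, and p-values therefore refer to the spread among these samples alone, part of which may be technical. No batch is given. A chi-square per gene between each of 45 pairs of libraries ran from 7.70 to 218, so no library repeats another. Intervals on counts cover counting error only. Members, lists, motifs and alternatives were chosen with earlier results of these data known. Named genes are the 8 peptides, Scn9a, up to 4 genes of smallest p per list, and the 3 genes most like each tested peptide, leaving out names that are only identifiers and some genes that are not reported here; other names were chosen after their values were seen. The promoter entries of Calca, Tac1 and Vip start inside the annotated span of the gene, so only short windows of them are printed.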

Additional observations from a re-analysis of the deposited data

How the results depend on the processing

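The number of all genes called was 0 by edgeR, also under upper-quartile scaling, without a filter and with the replicate block, but it was 17 by DESeq2. It was 1 with each of limma voom with library weights, the pan-neuronal mean as a covariate and the 3 libraries of lowest pan-neuronal mean left out, and 0 to 1 with 1 library left out. Of the 8 peptide genes 1 was called by DESeq2 (Vip), and 0 with 1 library left out (0 to 0) or in the other fits. The contrast of the peptide groups stayed between 1.58 and 2.28, and between 1.70 and 2.28 with 1 library left out. Exact permutation p for Gal was 0.0476 with all libraries and ran from 0.00794 to 0.0952 over 16 alternatives, staying under 0.05 in 5. Leaving out any library but SCN9A_2544 replicate 2 or 3 took it above.

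By limma voom with library weights the log2 fold changes were 1.99 for Gal and 2.51 for Npy (SE 0.92 and 1.14, limma adjusted p = 0.242 and 0.235), against 3.20 and 3.60 by edgeR, and the unadjusted p of Gal rose above 0.05.

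Signs turned for values near 0. The edgeR log2 fold change of Calca was 0.17 by limma voom, 0.06 without the 3 libraries, and -0.40 to 0.19 with 1 library left out. That of Calcb was 0.086 by limma voom and -0.39 to 0.09 with 1 left out. That of Nts was -0.17 with the covariate, -0.14 without the 3 libraries, and -0.32 to 0.30 with 1 left out. For mean log2 CPM, Calca was 0.047 without the 3 libraries and -0.41 to 0.11 with 1 left out. Calcb was -0.35 to 0.025 with 1 left out. Nts was -0.029 against the pan-neuronal mean, -0.19 without the 3 libraries and -0.39 to 0.41 with 1 left out. The r of Tac1 with the pan-neuronal mean became -0.16 without the 2 farthest libraries. The causes were not tested.

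The labels do not say whether replicate numbers pair the samples. Deviations of same-numbered libraries correlated at 0.38, 0.01, 0.57, -0.01 and 0.05 in replicates 1 to 5. Treated replicates 1 and 3 were most like the PBS library of their own number, and replicates 2, 4 and 5 were not. Such values cannot decide whether the samples were paired. With the replicate block the edgeR log2 fold changes were 2.17 for Gal and 2.78 for Npy. In that fit 0 of the 7 tested peptides were called, Vip not being among them, and the contrast was 1.98. The paired sign-flip test cannot go below 0.0625, which Gal, Npy and Vip all gave.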

Other observations

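The nerve injury list held 5 genes too low for the test across genes, which are described after their values were seen. Sprr1a, a small proline-rich protein that promotes axon growth, had 16, 1, 0, 50 and 7 counts in SCN9A_2544 replicates 1 to 5, against 2, 0, 0, 0 and 1 counts in PBS replicates 1 to 5. Crisp3, a secreted cysteine-rich protein, had 16, 2, 2, 118 and 30 counts in SCN9A_2544 replicates 1 to 5, against 1, 0, 1, 0 and 0 counts in PBS replicates 1 to 5. Cckbr, a cholecystokinin receptor, had 25, 14, 2, 64 and 17 counts in SCN9A_2544 replicates 1 to 5, against 8, 2, 0, 3 and 3 counts in PBS replicates 1 to 5. Replicate 4 was highest for these 3 genes, and replicates 2 and 3 stood near the PBS values for Sprr1a and Crisp3. Il6, a cytokine, had 2, 3, 2, 20 and 3 counts in SCN9A_2544 replicates 1 to 5, against 2, 0, 0, 0 and 0 counts in PBS replicates 1 to 5, so that replicate 4 alone stood out. Fgf3, a growth factor, had 0 counts in all 5 SCN9A_2544 libraries, against 0, 3, 0, 0 and 1 counts in PBS replicates 1 to 5.

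Atf3, a transcription factor of injured cells, was 1 of several genes of the list that did not follow that order. It stood at 31.9, 14.0, 74.6, 89.5 and 32.1 CPM in SCN9A_2544 replicates 1 to 5, against 9.89, 13.4, 36.6, 9.40 and 21.2 CPM in PBS replicates 1 to 5. SCN9A_2544 replicate 3 was the second highest library for Atf3 while its Gal and Npy lay within the PBS range, and the highest PBS library, replicate 3, was likewise poor in pan-neuronal RNA. The log2 fold change of Atf3 was 1.42 (SE 0.51, edgeR adjusted p = 0.963). Jun was highest in SCN9A_2544 replicate 3, at 289 CPM, against 170, 149, 228 and 195 CPM in replicates 1, 2, 4 and 5. Among treated libraries replicate 3 was second for Gadd45a, Flrt3 and Csf1, at 103, 33.6 and 33.6 CPM. It was the highest treated library for Smad1, at 39.5 CPM, and the lowest for Ecel1, Sox11, Cacna2d1, Stmn4 and Gap43. Gap43, a growth cone protein on both the nerve injury and the pan-neuronal list, stood at 418, 429, 193, 975 and 538 CPM in SCN9A_2544 replicates 1 to 5, against 471, 287, 361, 453 and 232 CPM in PBS replicates 1 to 5, so the set-off against the pan-neuronal mean holds 1 gene that was itself high in replicate 4.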
